A study of Arabidopsis thaliana with 9 samples.

Results

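The first hour of red light was compared with darkness across the transcripts of wild type Arabidopsis thaliana seedlings of the Columbia-0 accession. Every gene whose value reached 10 in the R1h column, the D column or both was taken, which gave 16602 of the 17680 genes measured. Of these, 15934 reached that value in both columns, 324 through R1h alone and 344 through D alone, and 1078 genes lay below it in both. Steady state mRNA levels had been measured by 3′-end RNA-seq in whole seedlings, with 3 groups of 3 libraries each. All dark-grown seedlings were germinated with 3 h of white light and a far-red pulse of 5 min that returns phytochrome to its inactive form. The sources differ on whether the cold treatment of 4 days in darkness came before or after this light. D seedlings grew for 2 days in this true darkness. R1h seedlings grew for 47 h in the same darkness and were then moved to red light of 10 µE for 1 h, the unit being a micromole of photons per square metre and second. WLc seedlings, whose values are given only for reference, grew under constant white light (100 µE) for 2 days. No group carried a mutation or a transgene.

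Red light converts phytochrome to its active form, which moves to the nucleus and brings about the degradation of the phytochrome-interacting factors (PIFs). PIFs are basic helix-loop-helix (bHLH) transcription factors that bind the G-box and keep the dark programme running, with a long hypocotyl, a closed apical hook and unopened cotyledons. In the light, the seedling changes from growth on seed reserves to building photosynthetic cotyledons, and protects them against excess light.

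Each value is a mean over the libraries of a group as the authors deposited it, in pseudo-counts, that is, reads per gene adjusted to a common library size. No value per library was given, so the differences have no replicate check and no SD or test. A gene is called higher or lower in R1h when log2(value + 1) differed by at least 1 from D. The pseudocount of 1 understates the change of genes with low values. The D column summed to 11.4 M pseudo-counts and the R1h column to 11.99 M, and 1 read was worth about 0.331 and 0.330 pseudo-counts. A value of 10 in both columns therefore rested on about 30.2 reads each, and counting error alone reached 0.78 on the log2 scale to either side, against 0.23 at a value of 100 and 0.07 at 1000. The spread between plants and libraries comes on top and could not be measured.

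After 1 h of red light, 626 genes stood at least 2-fold higher than in D and 409 at least 2-fold lower, together 6.23% of all genes compared (3.77% higher and 2.46% lower). With the entire 95% counting interval of the ratio required to exceed 2-fold, 423 genes were higher (2.55%) and 231 lower (1.39%). The median log2 fold change of all genes was 0.00, and 83.7% of genes lay within 1.5-fold. Large differences were mostly increases. At least 4-fold higher were 187 genes against 52 lower, at least 8-fold 75 against 11, at least 16-fold 36 against 5, and at least 32-fold 20 against none. Genes that passed the minimum through R1h alone could only be higher, and those through D alone only lower. Among genes with at least 10 in both columns, 498 were at least 2-fold higher and 325 lower. The larger steps were not computed for these genes alone, and several of the 20 had almost no reads in D. Since whole seedlings were measured, fewer cells of a type and less RNA per cell cannot be told apart.

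**Figure D1:**
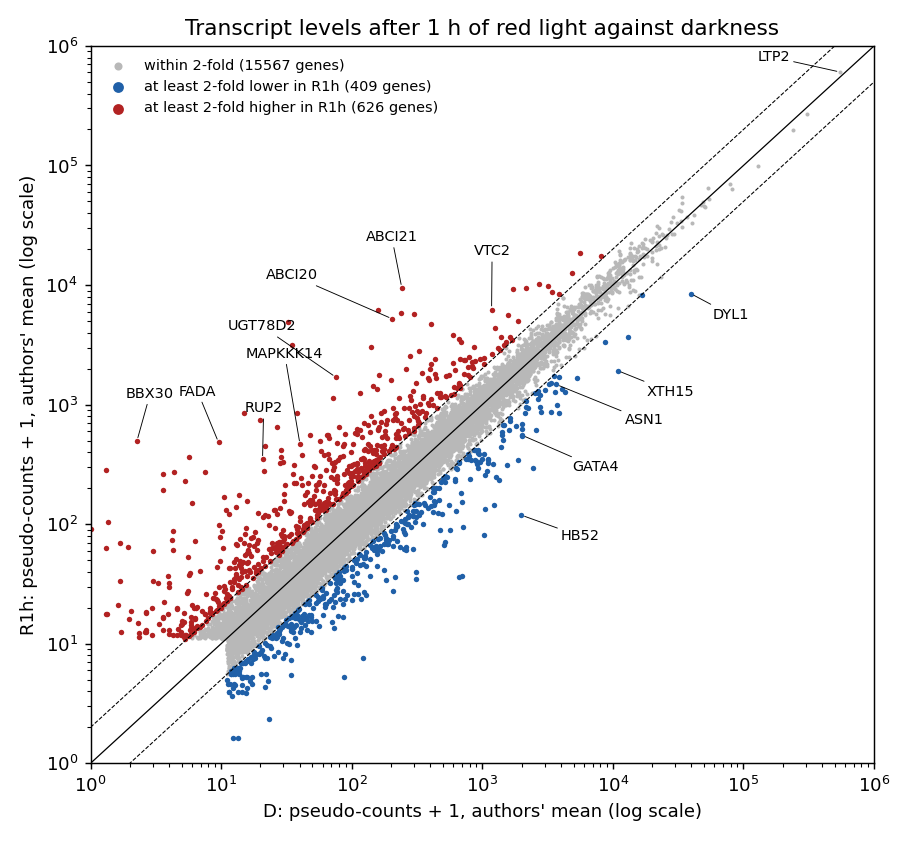
Level of each of the 16602 genes in D (horizontal axis) and R1h (vertical axis), as the authors' mean in pseudo-counts + 1, both axes logarithmic. The solid line marks equal levels and the dashed lines 2-fold. Most of the 626 red points lie at low D levels, where genes under 10 in D could only be called higher. The 409 blue points reach up to DYL1 at 39446 pseudo-counts in D.

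The higher genes had the lowest median level in D, which the minimum value of 10 in either column partly brings about. The median of the higher genes went from 52.6 pseudo-counts in D to 189.6 in R1h. That of the lower genes went from 110.5 to 37.8, and that of all others was 129.6 in D. By construction the group under 10 in D could only be called higher, and 39.5% of its 324 genes were. These 128 genes passed the minimum through R1h alone and pull down the D median of the higher genes. The median without them was not computed. From 10 to 30 pseudo-counts in D, 4.74% of genes were higher and 3.55% lower. The order of these shares turned with level, since from 1000 to 3000 in D 1.38% were higher and 3.50% lower, and from 3000 upwards 0.951% and 2.85%. The D value sets both the bin and the difference, so error in D can add to this turn. Its part was not measured. In amount, the higher genes together went from 124177 to 433091 pseudo-counts, from 1.09% to 3.61% of their column. The lower genes went from 274515 to 90706, from 2.40% to 0.756%.

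The 20 highest fold changes belonged to genes of several kinds. BBX30 (AT4G15248), a small B-box protein that binds other regulators, went from 1.26 to 494 pseudo-counts, with 87.2 in WLc. ELIP1 (AT3G22840), an early light-induced protein that protects the thylakoid, went from 31.4 to 4908 (WLc 59.1), a plain ratio of 156 (95% counting interval 127 to 193). F3H (AT3G51240), flavanone 3-hydroxylase of flavonoid synthesis, went from 33.9 to 3127 (WLc 848). These 3 genes stood far higher after 1 h of red light than in seedlings grown in white light throughout. SIGE (AT5G24120), a sigma factor that directs the plastid RNA polymerase to light-responsive genes, went from 3.32 to 275 (WLc 132). The stretches before the starts of these 4 genes are shown because they hold motifs that PIFs and the light regulator HY5 are known to bind. The letters are those of RefSeq for the TAIR10.1 assembly, 250 bases 5′ to 3′ on the strand of the gene and ending just before its start. They lie at chr4:8708591-8708840 (plus strand), chr3:8085670-8085919 (minus strand), chr3:19024942-19025191 (plus strand) and chr5:8160344-8160593 (minus strand). Capitals mark the G-box CACGTG, which begins 72 bases before the start in BBX30, 66 in ELIP1 and 249 in F3H, and the PIF-binding element CACATG or its reverse CATGTG, which begins 170 bases before the start in F3H and 223 in SIGE.
BBX30: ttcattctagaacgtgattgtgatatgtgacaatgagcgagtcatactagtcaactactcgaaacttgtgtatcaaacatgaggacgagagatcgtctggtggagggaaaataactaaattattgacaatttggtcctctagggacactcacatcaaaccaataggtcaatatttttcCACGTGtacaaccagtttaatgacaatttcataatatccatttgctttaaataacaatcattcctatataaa
ELIP1: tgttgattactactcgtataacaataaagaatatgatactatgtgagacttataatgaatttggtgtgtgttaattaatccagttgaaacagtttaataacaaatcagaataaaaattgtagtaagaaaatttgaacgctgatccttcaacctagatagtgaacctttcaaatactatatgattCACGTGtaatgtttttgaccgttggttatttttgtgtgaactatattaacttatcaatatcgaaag
F3H: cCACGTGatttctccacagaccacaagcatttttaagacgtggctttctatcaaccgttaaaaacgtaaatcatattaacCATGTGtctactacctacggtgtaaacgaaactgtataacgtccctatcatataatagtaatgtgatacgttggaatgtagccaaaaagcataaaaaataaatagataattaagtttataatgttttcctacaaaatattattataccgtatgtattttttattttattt
SIGE: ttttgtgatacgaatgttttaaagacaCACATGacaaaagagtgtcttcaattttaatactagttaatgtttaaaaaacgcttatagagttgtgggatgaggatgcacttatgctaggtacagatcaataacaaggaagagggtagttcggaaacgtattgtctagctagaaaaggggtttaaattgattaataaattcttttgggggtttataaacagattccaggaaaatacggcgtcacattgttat

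MIR163 (AT1G66725), a microRNA precursor, had the seventh highest difference. It went from 2.59 to 261 pseudo-counts (log2 fold change 6.19), and WLc stood at 120.4. The reads came from the polyadenylated precursor, and the mature microRNA was not measured. The precursor spans 331 bases at chr1:24884066-24884396 on the plus strand, and the mature form of 24 bases lies at chr1:24884359-24884382. Its sequence, from the same RefSeq table, is shown with bases 2 to 8, called the seed, in capitals. It is known for acting on transcripts of small-molecule methyltransferases.
ath-miR163: uUGAAGAGgacuuggaacuucgau

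Several other genes of the 20 highest act in plastids or in light signalling. CGA1 (AT4G26150), a GATA factor that promotes chloroplast development, went from 4.69 to 360.4 pseudo-counts (log2 fold change 5.99). FADA (AT4G27030), the desaturase that makes the trans fatty acid of plastid phosphatidylglycerol, went from 8.56 to 481 (5.66). ELIP2 (AT4G14690) went from 158 to 6127 (5.27). TZP (AT5G43630), a zinc knuckle protein of phytochrome signalling, went from 6.52 to 271 (5.18). For CGA1 the WLc level of 335 was near that of R1h, FADA with 1157 and TZP with 435 stood higher still in WLc, and ELIP2 with 296 stood far lower.

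The soluble ABC proteins ABCI21 (AT5G44110) and ABCI20 (AT5G02270) changed together. ABCI21 went from 241 to 9447 pseudo-counts (5.29) and ABCI20 from 204 to 5211 (4.67), while WLc stood at 459 and 626. ABCI21 was also among the 10 largest gains in pseudo-counts over all genes. THI2.2 (AT5G36910), a small cysteine-rich thionin of a class known for defence, went from 14.1 to 852 (5.82, WLc 1440.3). AT3G56290, which RefSeq names a potassium transporter, went from 18.7 to 738 (5.23, WLc 818).

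Several of the 20 highest had almost no reads in D, so that their ratios are uncertain. AT3G44450, an uncharacterized protein, had 1 read in D and 62.6 pseudo-counts in R1h, a ratio of 202 (33.6 to 7512). AT3G52740, also uncharacterized, had 2 reads in D and 68.3 in R1h, a ratio of 99.7 (28.2 to 857). ATGA2OX1 (AT1G78440), which encodes an enzyme that inactivates gibberellin, had 3 reads in D, reached 63.7 pseudo-counts in R1h and stood at 0.331 in WLc. Its next measured neighbour on the chromosome, AT1G78450, went from 2.95 to 16.6. AT5G42760, whose D value was listed as 0, reached 89.2 in R1h.

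**Figure D2:**
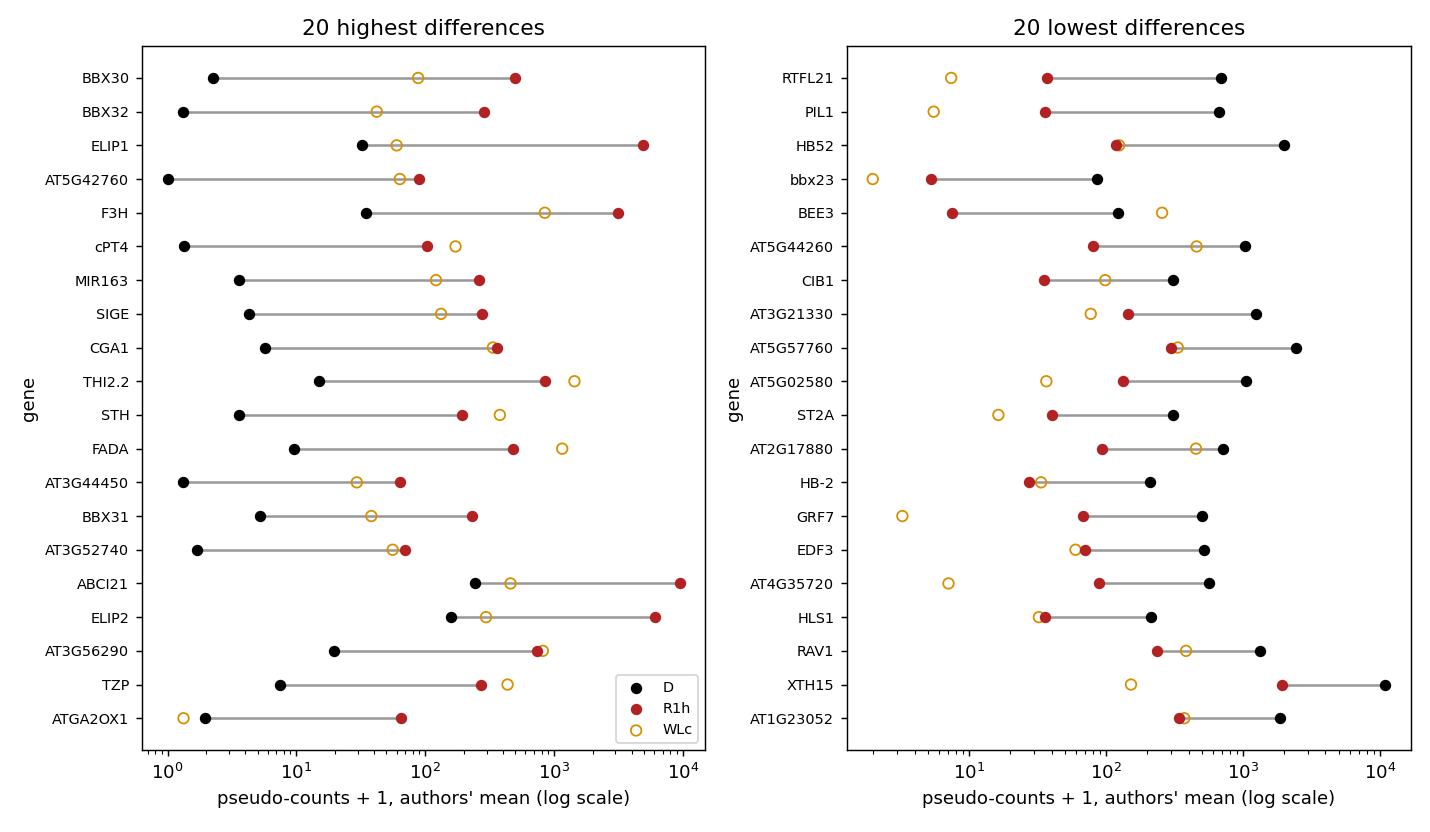
Levels in D (black), R1h (red) and WLc (open) of the 20 highest (left) and 20 lowest (right) log2 fold changes among genes that reached 50 in D or R1h, as the authors' mean in pseudo-counts + 1 on a logarithmic axis. The D points of 5 of the highest genes rest on 3 reads or fewer (BBX32, cPT4, AT3G44450, AT3G52740 and ATGA2OX1) and that of AT5G42760 on none, while among the lowest genes only bbx23 and BEE3 stood under 10 pseudo-counts in R1h.

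The lowest genes included growth regulators, transcription factors and genes without a known role. RTFL21, PIL1, HB52, bbx23, BEE3 and AT5G44260 had the 6 lowest fold changes, from -4.23 to -3.67 on the log2 scale. CIB1 (AT4G34530), a bHLH factor that binds cryptochrome, followed with 308 pseudo-counts in D and 34.1 in R1h. None of the 50-base windows at the end of its transcript was unique in the RefSeq annotation. The authors counted unique reads on TAIR9 transcripts, where it had about 929 reads in D and 103 in R1h. Its gene model may differ between the annotations, which was not checked, so its value is to be read with care. AT3G21330, another bHLH factor, went from 1236 to 143 (-3.10). Among regulators of growth, EDF3 (AT3G25730) and RAV1 (AT1G13260), both of the RAV family, went from 520.0 to 69.4 and from 1336 to 235. GRF7 (AT5G53660), a growth-regulating factor, went from 504 to 66.5, and stood at only 2.26 in WLc. HLS1 (AT4G37580), needed for the apical hook, went from 213 to 35.1.

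Single genes of other kinds were as low. ST2A (AT5G07010), a sulfotransferase that acts on hydroxylated jasmonate, went from 307 to 39.1 pseudo-counts (-2.94), and the adjacent gene ST2B (AT5G07000) went from 42.7 to 13.2 (-1.62). AT2G17880, a DnaJ protein, went from 709 to 92.9 (-2.92) and stood at 453 in WLc. AT5G57760, an uncharacterized protein, went from 2446 to 296 (-3.04), with WLc at 333. AT5G02580, which RefSeq names an argininosuccinate lyase, went from 1047 to 132 (-2.98). AT1G23052, annotated as a non-coding RNA, went from 1863 to 341 (-2.45, WLc 372). AT4G35720, of unknown function, went from 567 to 88.4 (-2.67, WLc 6.07). XTH15 (AT4G14130), an enzyme that remodels xyloglucan in the cell wall, had the highest D level of the 20 lowest genes, at 10864, and stood at 1924 in R1h and 151 in WLc.

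Ranking by pseudo-counts gained or lost gave other genes than ranking by fold. The largest gain was that of LTP2 (AT2G38530), a lipid transfer protein of the epidermis and the most abundant transcript of both columns, which went from 551925 to 604258, a log2 fold change of only 0.13. DRT112 (AT1G20340), a plastocyanin of photosynthetic electron transport, went from 33859 to 54135 (0.68), and CRD1 (AT3G56940), a subunit of the cyclase of chlorophyll synthesis, from 8049 to 17560.3 (1.13). LHB1B2, RBCS3B, LHCA4, UBQ10, AT4G15000, SAC52 and ABCI21 completed the 10 largest gains, of which AT4G15000 and SAC52 encode ribosomal proteins. In RBCS3B, 72.5% of the end windows were unique, so that reads of its close copies were not counted in full. Among the losses, ICL (AT3G21720), isocitrate lyase of the glyoxylate cycle that turns seed oil into sugar, stood first and went from 237854 to 199218 (-0.26).

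Dormancy- and senescence-associated transcripts were among the largest losses. DYL1 (AT1G28330), a dormancy-associated protein, went from 39446 to 8479 (-2.22). AT3G15450, which RefSeq names an aluminium-induced protein, went from 13108 to 3669 (-1.84), and SEN1 (AT4G35770), a gene known to be induced by darkness, from 16822 to 8223 (-1.03). EXL2 (AT5G64260), an EXORDIUM-like protein of the cell wall, went from 23276 to 11733 (-0.99), just within 2-fold. The aquaporins TIP2 (AT3G26520) and PIP1C (AT1G01620) had log2 fold changes of -0.19 and -0.39, from D levels of 305588 and 130272 pseudo-counts. XTH15, TCTP and the mitochondrial locus ATMG00020 were the others. Most of the change in amount lay in the 15567 genes within 2-fold. Those of them that were above their D level gained 1205050 pseudo-counts together, against 308914 gained by the higher genes. Those below their D level fell by 781646, while the lower genes fell by 183808.

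Transcription factor families differed in how many members were called. Of 27 B-box factors, regulators of light responses, 13 were higher and 4 lower in R1h (median log2 fold change 0.44), where 3.77% and 2.46% of all genes were. The same shares over all genes are to be set beside the counts of every list that follows. In many lists some called members had a counting interval that reached within 2-fold. STO (AT1G06040), a B-box factor already abundant in the dark, went from 597 to 3856 pseudo-counts, COL2 (AT3G02380) from 27.9 to 367 and BBX18 from 34.3 to 261. BBX17 and BZS1 went the other way, from 175 to 40.2 and from 352 to 98.9. Of 57 MYB factors 11 were higher and 4 lower, although the list's median was -0.08. With the entire counting interval required to exceed 2-fold, 7 were higher and 1 lower. MYB12 (AT2G47460), a regulator of flavonol synthesis, had 2 reads in D and 32.7 pseudo-counts in R1h, a ratio of 47.7 (13.3 to 413). MYB111 (AT5G49330), a related flavonol regulator, went from 56.0 to 249.5, and PAP1 (AT1G56650), which promotes anthocyanin, had 3 reads in D and 17.6 pseudo-counts in R1h (ratio 17.1, 5.70 to 88.0).

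Among the other MYB genes, MYB47 (AT1G18710) went from 3.26 to 59.9 pseudo-counts, MYB13 (AT1G06180) from 60.4 to 378 and MYB16 (AT5G15310), a regulator of epidermal cells and the cuticle, from 220.3 to 744. MYB27 (AT3G53200) was the lowest and went from 128 to 24.4 (-2.34).

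GATA factors split between their branches. CGA1 and GNC (AT5G56860), which both promote greening, were higher, GNC going from 109.7 to 318 (1.53). GATA4 (AT3G60530) and GATA2 (AT2G45050), of which GATA2 is known as a regulator of seedling development in light, were lower. GATA4 went from 2015 to 553 (-1.86) and GATA2 from 416 to 124 (-1.73). The other 18 of the 22 GATA genes lay within 2-fold.

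AP2/ERF factors, which act in stress and ethylene responses, moved in both directions, with 6 of 44 higher and 7 lower (median -0.38, 26 members below 0). The list is not complete and leaves out lower genes of this family such as AT5G61590 (-1.68), so the balance of the 2 directions is uncertain. With the entire counting interval required to exceed 2-fold, 5 were higher and 3 lower. RAP2.7 (AT2G28550), an AP2 protein that delays flowering, went from 116 to 614 pseudo-counts, tny (AT5G25810) from 137 to 592, and DREB2A (AT5G05410), a drought response factor, from 147 to 399. Of the ethylene response factors, ESE3 went from 79.7 to 22.5, ERF-1 (AT4G17500) from 304 to 104 and ERF2 from 24.3 to 6.82. In the WRKY family, known for defence and senescence, 5 of 44 were lower and none higher, and 34 lay below 0 (median -0.27). Only 2 were lower with the entire counting interval required to exceed 2-fold. WRKY22 (AT4G01250) went from 111 to 30.2, WRKY38 from 73.1 to 21.5 and WRKY70 (AT3G56400) from 147 to 62.9. Of 46 NAC factors 1 was higher and 3 lower (median -0.24), 8.70% against 6.23% of all genes. RD26 (AT4G27410), a dehydration response factor, went from 98.9 to 265, whereas NAC3 (AT3G15500) went from 899.8 to 339.7 and NAC6 (AT5G39610), which promotes leaf senescence, from 177 to 67.6.

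The bHLH list holds genes whose RefSeq product contains bHLH or basic helix-loop-helix in exactly this spelling. It so leaves out PIL1, BEE3 and CIB1 of the same class. Of its 74 genes 5 were higher and 6 lower (median -0.05), 14.9% against 6.23% of all genes. IBH1 (AT2G43060) and KDR (AT1G26945), small members that bind other bHLH proteins, went from 462 to 157 and from 206 to 64.4. Of the higher ones, bHLH34 (AT3G23210) went from 12.2 to 66.5 and UNE10 (AT4G00050), a relative of the PIFs, from 24.6 to 131. Homeobox factors had 4 of 43 lower and 2 higher, of which HB5 (1.05) fell under 2-fold with the columns scaled to the same total or quantile normalized. HB-12 (AT3G61890), a gene known to respond to water shortage, went from 33.0 to 125. None of 9 SPL factors, which time the change to the adult phase, was called, and of 28 bZIP factors bZIP3 alone was lower, from 416 to 184. Of 17 heat shock factors 3 were higher, 1 of them with its entire counting interval beyond 2-fold. HSFA6B (AT3G22830), the neighbour of ELIP1 on chromosome 3, went from 14.3 to 82.4, and the other pair, HSFA2 (1.04) and HSFC1 (1.04), fell under 2-fold with the columns scaled to the same total. CDF3 (AT3G47500), a DOF factor, went from 207 to 941.

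Of 5 photolyase and UV-B feedback genes 4 were called higher, with a list median of 3.26. RUP2 (AT5G23730) and RUP1 (AT5G52250), which switch off the UV-B receptor UVR8, went from 19.8 to 348 and from 154 to 1350.1 pseudo-counts (4.07 and 3.12). PHR1 (AT1G12370), the photolyase of cyclobutane dimers, went from 4.61 to 52.6 (3.26), and CRY3 (AT5G24850), a cryptochrome of organelles that can repair DNA, from 27.7 to 416 (3.86). UVR3 (AT3G15620), the photolyase of the other main lesion, was the exception and went from 18.0 to 9.82 (-0.81). DDB2 (AT5G58760), which recognises damaged DNA, was not in the list and is named after its value was seen. It went from 56.4 to 492 (3.10) and lies between AT5G58750 and cPT4, both of which were also higher.

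Of 50 UDP-glycosyltransferases 9 were higher and 1 lower (median 0.08), 20% against 6.23% of all genes. UGT78D2 (AT5G17050), which adds glucose to flavonols and anthocyanins, went from 74.8 to 1690.3 pseudo-counts (4.48), and UGT78D1 (AT1G30530), which adds rhamnose to flavonols, from 98.5 to 398 (2.00). UGT84A1 (AT4G15480) and UGT84A2 (AT3G21560), which act on hydroxycinnamic acids, went from 5.26 to 71.6 and from 85.9 to 463. UGT73C1 went from 2.99 to 29.1, and UGT85A4 was the only lower one, from 218 to 99.0. Of 118 cytochrome P450 genes, oxidases of many pathways, 8 were higher and 12 lower, 16.9% against 6.23% of all genes. With the entire counting interval required to exceed 2-fold, 4 were higher and 6 lower. CYP96A12 (AT4G39510) went from 9.83 to 131, while its relative CYP96A5 (AT2G21910) went from 72.3 to 12.5 and was listed at 0 in WLc. CYP71B22 had 12.5 pseudo-counts in D and 2 reads in R1h, a ratio of 0.0513 (0.00613 to 0.203). Of 36 glutathione S-transferases 2 were higher and 2 lower, with ERD9 (AT1G10370) going from 51.4 to 300.1.

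Called genes of antioxidant synthesis and thylakoid upkeep were all higher. Of 21 ascorbate, tocopherol and antioxidant genes 3 were higher and none lower, and 16 lay above 0 (median 0.37). VTC2 (AT4G26850), the enzyme that commits sugar to ascorbate, went from 1177 to 6241 pseudo-counts (2.41, WLc 3158). VTE1 (AT4G32770) and G-TMT (AT1G64970), of tocopherol synthesis, went from 11.7 to 41.9 and from 93.6 to 223. Of 29 FtsH, Deg and Clp proteases 3 were higher, and all of these encode subunits of the thylakoid FtsH complex that clears damaged photosystem II. FTSH1 (AT1G50250) went from 71.1 to 282, FTSH8 (AT1G06430) from 153 to 388 and VAR1 (AT5G42270) from 371 to 856. NdhT (AT4G09350), a subunit of the plastid NDH complex of cyclic electron flow, went from 29.4 to 178. Of 7 lipid desaturases 3 were higher, FADA, FAD5 (AT3G15850), which introduces the first double bond of plastid galactolipids and went from 484 to 1167, and FAD8 (1.01), which fell under 2-fold with the columns scaled to the same total or quantile normalized.

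In the ABC, nitrate and peptide, and sugar transporter lists, more members were called higher than lower. The list medians were 0.05, 0.01 and -0.20, and those of the ABC and nitrate lists turned negative with the columns scaled to the same total. The ABC list also holds soluble proteins such as ABCI21. Of 70 ABC transporters 8 were higher and 1 lower, where 3.77% and 2.46% of all genes were. Besides ABCI21 and ABCI20, ABCF5 (AT5G64840) went from 675 to 2419 pseudo-counts, ABCG22 (AT5G06530), a transporter known from guard cells, from 75.7 to 239, and ABCG1 (AT2G39350), the lower one, from 400.5 to 141. Of 24 nitrate and peptide transporter genes 3 were higher and none lower. AT3G21670 went from 144 to 1442 (3.32, WLc 1621), and GTR1 (AT3G47960), which carries glucosinolates, from 348 to 1169. Of 22 sugar transporters 2 were higher and 1 lower. SWEET2 (AT3G14770) went from 40.8 to 209.8 and SWEET17 (AT4G15920), a fructose carrier of the vacuole, from 106 to 275, while STP14 went from 46.3 to 16.4.

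Of 10 sulfate, 11 phosphate and 9 iron genes 1 each was higher and none lower, where 3.77% of all genes were higher, so that a single gene sets the share of each list. APR2 (AT1G62180), a reductase of sulfate assimilation, went from 155 to 454, PAP17 (AT3G17790), an acid phosphatase of phosphate starvation, from 44.7 to 183, and OPT3 (AT4G16370), of iron transport, from 38.5 to 78.0, a difference that fell under 2-fold under both scalings.

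In carbon and nitrogen metabolism, the called starch genes were higher and the 2 called genes of the amino acid breakdown list lower. Of 29 starch genes 3 were higher and none lower (median 0.27). CT-BMY (AT4G17090), a chloroplast beta-amylase, went from 2.98 to 31.2 pseudo-counts and stood at 392 in WLc. BAM1 (AT3G23920), another beta-amylase, went from 605 to 1398, and GBSS1 (AT1G32900), which makes amylose, from 42.4 to 94.8. All 12 genes of the amino acid breakdown list lay below 0, between -1.35 and -0.29 (median -0.61), although only 2 of them reached 2-fold. The list also holds ASN1, an enzyme of synthesis, so BCAT-2 was the only breakdown gene called. BCAT-2 (AT1G10070), which starts the breakdown of branched-chain amino acids, went from 1417 to 554. ASN1 (AT3G47340), the dark-induced asparagine synthetase, went from 3671 to 1474, and WLc stood at 1989.

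The called genes of abscisic acid and cytokinin signalling encode proteins that dampen these pathways. Of 11 abscisic acid signalling genes 3 were higher, and all of them encode phosphatases that hold the pathway back. HAB1 (AT1G72770) went from 153 to 417 pseudo-counts, HAI1 (AT5G59220) from 29.1 to 77.9 and PP2CA (AT3G11410) from 229 to 524. None of the 8 PYR/PYL receptors of the hormone was called (median -0.21). Of 11 strigolactone and karrikin genes 2 were higher. KAI2 (AT4G37470), the karrikin receptor, went from 434 to 1787 (2.04), and CYP711A1 (1.03), of strigolactone synthesis, fell under 2-fold with the columns scaled to the same total. Of 12 cytokinin response regulators ARR7 and ARR9, type-A members that dampen the response, were higher, going from 24.8 to 63.3 and from 138 to 322. Among 17 auxin response factors ARF18 was the only one called and went from 219.9 to 71.1. RPT2 (AT2G30520), a partner of the blue light receptor phototropin, went from 237 to 5829 (4.61, WLc 9313).

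In the MAP kinase cascade 3 of 38 genes were higher and none lower, 7.89% against 6.23% of all genes. MAPKKK14 (AT2G30040) went from 39.2 to 463 pseudo-counts (3.53) and MAPKKK13 (AT1G07150) from 79.1 to 649 (3.02), and both stood below their D levels in WLc, at 31.0 and 57.1. MAPKKK18 (AT1G05100), known to be induced by abscisic acid, went from 5.27 to 15.4. Of 18 calcium-dependent kinases none was called. Of 29 CIPK kinases and CBL sensors SIP1 (AT5G58380) was higher, from 89.0 to 190.1, and CIPK25 lower, from 184 to 66.6. Of 18 calmodulin-like proteins CML41 went from 205 to 78.9. The called shares of these lists, 6.90% and 5.56%, were near that of all genes. Of 110 receptor kinases with leucine-rich repeats 4 were higher and 1 lower, 4.55% and so below the 6.23% of all genes. The lower one, FLS2 (AT5G46330), the receptor of bacterial flagellin, went from 386 to 135 (-1.51).

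Of 8 DVL/RTFL peptides, which restrict organ growth, 3 were lower. Besides RTFL21, RTFL8 (AT2G39705) went from 684 to 179.8 pseudo-counts and RTFL16 (AT3G25717) from 1804 to 667, while RTFL5 (1.06) was 2-fold higher as deposited but not with the columns scaled to the same total. CLE6, a signalling peptide of the CLAVATA3 family, went from 128 to 43.4. Of 187 RING proteins of the ubiquitin system 10 were higher and 10 lower (median -0.20), 10.7% against 6.23% of all genes. Of 19 plant U-box ligases 4 were higher, not all of them under the scalings, and 1 lower. None of these 4 had its entire counting interval beyond 2-fold. AT3G30460 went from 3.26 to 86.8 (4.36), AT1G24580 from 12.6 to 174 (3.68) and ATL8 (AT1G76410) from 84.4 to 15.7 (-2.35). Of 100 DnaJ proteins 4 were lower and 2 higher, 6% against 6.23% of all genes. J20, J11 and J8, which are plastid proteins, went from 251 to 61.2, from 807 to 237 and from 1423 to 589. In WLc, J20 with 334 and J11 with 859 stood above their D levels.

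Of 80 pectin enzymes, which modify the cell wall, 4 were higher and 5 lower, 11.25% against 6.23% of all genes. With the columns scaled to the same total, 2 of the higher ones fell under 2-fold. AT1G60590 went from 9.43 to 166 pseudo-counts (4.00) and AT1G48100 from 28.7 to 329 (3.47), whereas AT1G14890, from the family of inhibitors of such enzymes, went from 1217 to 318 (-1.93). Of 55 disease resistance genes 1 was higher and 3 lower, 7.27% and so near the share of all genes. None of 42 peroxidases was called (median -0.17). Of 8 cold and dehydration genes 3 were higher, LTI78 (AT5G52310), from 661 to 1512, CBF2, from 12.5 to 29.8, and LTI30 (1.04). Only 1 gene of the list had its entire counting interval beyond 2-fold. LTI78 and LTI30 are known to respond to cold, drought and abscisic acid, and with the columns scaled to the same total 2 of the 8 genes were higher.

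Large housekeeping families held no gene past 2-fold, but most members of some of them lay on the same side of 0. With the columns scaled to the same total, 1 gene each of the ribosomal, autophagy and aquaporin lists was lower. Of 292 ribosomal protein genes none was called, but 266 lay above 0, with a median log2 fold change of 0.30. Together they went from 973368 to 1213000 pseudo-counts. All 9 nucleolar genes of ribosome assembly but 1 lay above 0 (median 0.33), with NUC-L1 (AT1G48920), a nucleolin, going from 1639 to 2146. The medians of these lists stayed positive with the columns scaled to the same total, at 0.23 and 0.26. Endoplasmic reticulum chaperones had a median of 0.29 over 7 genes. In the opposite direction, 25 of 28 autophagy genes lay below 0 (median -0.30), with APG8A (AT4G21980), a protein of the autophagosome membrane, going from 3705 to 2777. Neither the 21 histone genes (median -0.03) nor the 18 SR splicing factors (0.07) held a called member. The 21 aquaporins had a median of -0.12 and none called, and together went from 610847 to 524731 pseudo-counts. A whole family on 1 side of 0 cannot be told apart from a shift of the columns against each other by its members alone. Scaling the columns to the same total moved the median of all genes from 0.00 to -0.07.

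**Figure D3:**
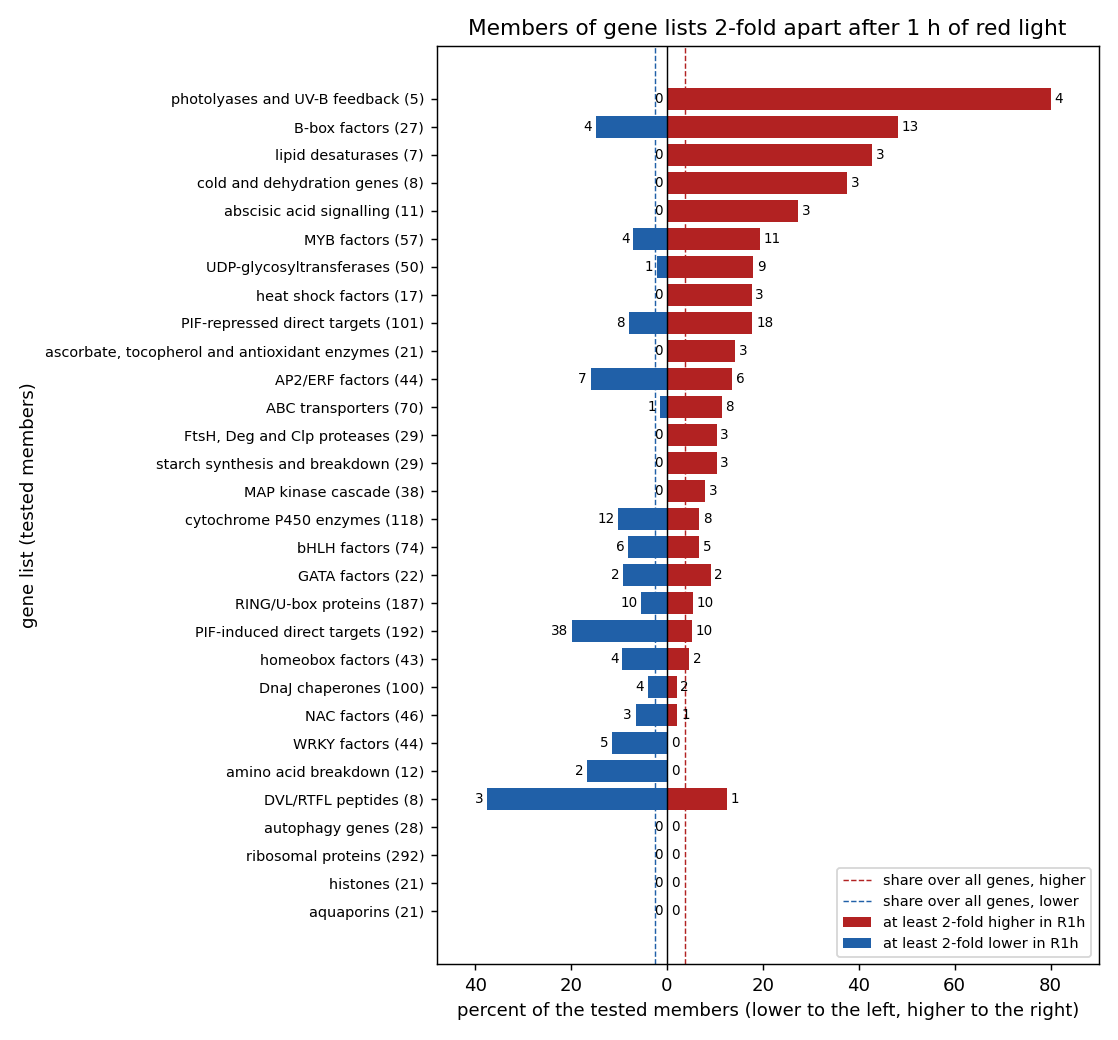
Share of tested members at least 2-fold higher (red, right) and at least 2-fold lower (blue, left) in R1h for 30 of the 73 gene lists, with the number of tested members in parentheses and the number called at each bar. Dashed lines mark the shares over all genes, 3.77% and 2.46%. The photolyase and UV-B list (4 of 5) and the B-box factors (13 of 27 higher, 4 lower) reach farthest, and autophagy, ribosomal protein, histone and aquaporin genes have no called member (1 lower gene in each of these but the histones with the columns scaled to the same total).

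Direct targets of the PIFs, genes bound by PIFs and misregulated without them, came from lists that earlier work had defined on other libraries. Of 192 PIF-induced targets measured 38 were lower and 10 higher (median -0.21). Of 101 PIF-repressed targets 18 were higher and 8 lower, and their median of 0.07 turned to -0.001 with the columns scaled to the same total. The called shares were 25.0% and 25.7%, against 6.23% of all genes. Outside the shade and hormone genes, the lower PIF-induced targets included SNRK2.5 (AT5G63650), a kinase of osmotic stress, which went from 4292 to 1279.7 pseudo-counts, GRF2 (AT4G37740), a growth-regulating factor, from 488 to 121, PCS1 (AT5G02190), an aspartic protease, from 293 to 60.9, and its neighbour FHL (AT5G02200), which carries phytochrome A into the nucleus, from 13.4 to 2.93. The higher PIF-repressed targets included SPA1 (AT2G46340), a repressor of light signalling, from 47.2 to 553, and CDSP32 (AT1G76080), a plastid thioredoxin of drought, from 31.9 to 128.

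Other targets were called against the direction that a loss of PIFs would give. Among PIF-induced targets, AT2G46420 went from 50.1 to 307 pseudo-counts, and ELIP2, AT3G21670 and HAI1 were also higher. Among PIF-repressed targets, AT1G80440, a kelch repeat F-box protein, went from 474 to 88.4, AT5G61590, of the AP2/ERF family, from 1112 to 345 and GASA6 (AT1G74670), a gibberellin-regulated peptide, from 255 to 110.1.

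Promoters were read from RefSeq's TAIR10.1 windows of 250 bases before to 50 after each gene start, on both strands, for 618 of the 626 higher, 402 of the 409 lower and 15297 of the other genes. The G-box CACGTG stood in 18.0% of higher, 8.71% of lower and 8.96% of other genes, and in 7.65% of all 27561 promoters of the table. The share did not climb with the size of the difference. It was 18.2% among genes 2- to 4-fold higher, 16.2% from 4- to 8-fold and 19.2% (14 of 73) from 8-fold upwards, and 5.88% among the 51 genes at least 4-fold lower. The 14 were BBX30, ELIP1, F3H, TZP, MYB12, CRY3, PRR9, BGLU6, AT1G24580, AT1G26761, TT4, PHR1, DDB2 and MAPKKK13, which include CRY3, PHR1 and DDB2 of DNA repair beside the flavonoid genes F3H, TT4 and MYB12. Some of them, such as PRR9 (0.333 pseudo-counts in D) and BGLU6 (0.637), passed the minimum through R1h alone, and their step is uncertain. Between 100 and 50 bases before the start, 5.99% of higher genes had a G-box, against 2.74% of lower and 2.74% of other genes. With only the 250 bases before the start the shares were 15.05%, 7.46% and 7.45%. Of the 618 higher promoters, 124 belong to genes under 10 in D, which passed the minimum through R1h alone. Motif shares without them were not computed, for the G-box or for the motifs below.

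**Figure D4:**
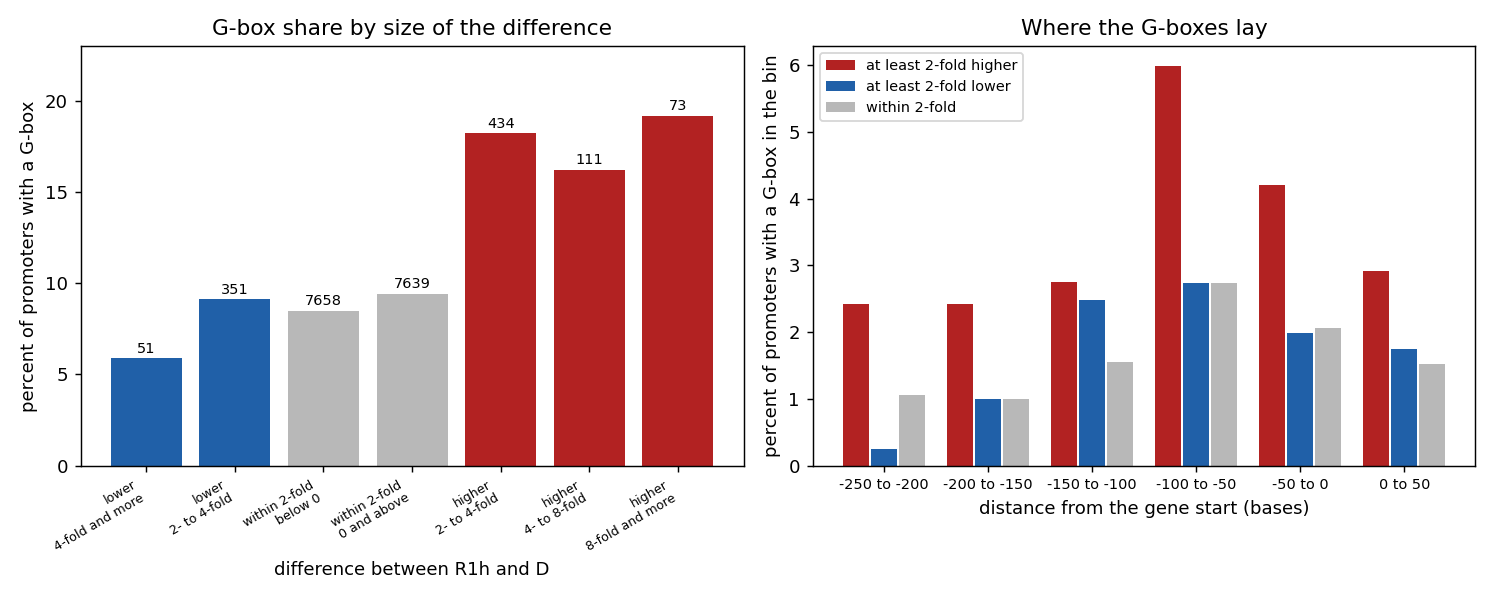
Left, percent of promoters with a G-box (CACGTG) by size and direction of the difference between R1h and D, with the number of promoters above each bar. Right, percent of promoters with a G-box in each 50-base bin by distance from the gene start, for genes at least 2-fold higher (red), at least 2-fold lower (blue) and within 2-fold (grey). The red bars on the left lie between 16.2% and 19.2% and the others between 5.88% and 9.43%, and on the right the red bar is highest at 5.99% from -100 to -50. Red includes 124 promoters of genes under 10 in D, which could only be called higher.

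The core ACGTG outside a G-box was found in 35.6% of higher, 24.4% of lower and 21.5% of other genes (21.5% of all promoters). Within only the 250 bases before the start, its shares were 29.4%, 22.4% and 18.3% (18.4% of all promoters). The PIF-binding element CACATG differed little between directions, with 17.0% of higher, 17.2% of lower and 12.7% of other genes (12.9% of all promoters). The I-box GATAAG was in 17.2%, 21.4% and 15.03% (14.7% of all promoters), and the evening element AAAATATCT of clock-controlled genes in 4.05%, 5.22% and 2.97% (2.81%). The telo-box AAACCCTA, known from genes of protein synthesis, was rarer in both called groups, with 1.78% and 2.24% against 5.54% (6.20% of all promoters). The words ACGTGGC (11.97%, 4.23% and 4.83%, 4.07% of all promoters) and GGCCCA (10.4%, 7.21% and 20.5%, 15.4% of all) were searched only after the data had been seen, and ACGTGGC overlaps the ACGTG core and can overlap a G-box. Among the 20 highest genes 4 promoters held a G-box, 2 a PIF-binding element and 15 neither, and none of the 20 lowest held either. These matches are descriptions of the letters in this window.

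Called genes had fewer exons than the rest. A single exon was annotated for 25.4% of higher (157 of 618), 40.3% of lower (162 of 402) and 13.1% of other protein-coding genes, and the median exon numbers were 3, 2 and 5. Median protein lengths were 333, 292 and 375 residues. The order of the single-exon shares was the same in each bin of D level from 10 to 3000 pseudo-counts. From 3000 upwards it differed, with 50% of 6 higher and 33.3% of 18 lower genes. Protein length and median exon number were not split by level. From 30 to 100 pseudo-counts in D the single-exon shares were 21.4%, 43.3% and 12.7%, and from 300 to 1000 they were 26.2%, 53.0% and 12.2%.

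**Figure D5:**
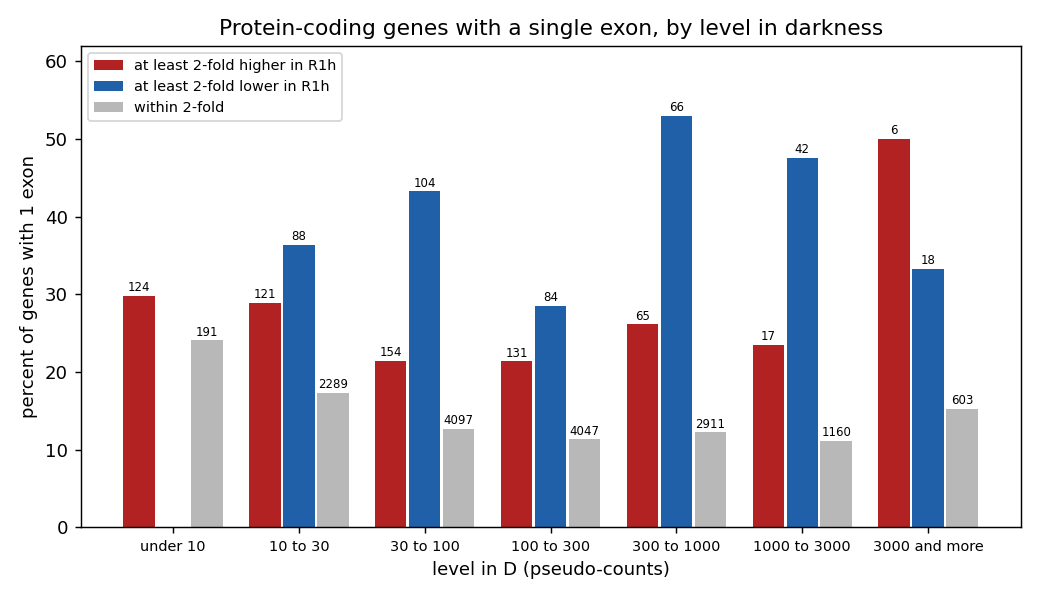
Percent of protein-coding genes with 1 exon by level in D (pseudo-counts), for genes at least 2-fold higher in R1h (red), at least 2-fold lower (blue) and within 2-fold (grey), with the number of genes above each bar. Blue bars are highest in each bin from 10 to 3000 pseudo-counts, reaching 53.0% of 66 genes from 300 to 1000, and the bins from 1000 upwards hold few called genes.

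Genes called in the same direction lay side by side more often than the share over all genes, although most had no such neighbour. The next measured gene on the chromosome was also higher for 54 of the 626 higher genes (8.63%, against 3.78% over all genes), and also lower for 27 of the 409 lower ones (6.60% against 2.47%). Some of the higher pairs hold a gene that passed the minimum through R1h alone and so could only be higher. The shares over all genes include such genes too, and the shares without them were not computed. On chromosome 3, TT5 (AT3G55120), chalcone isomerase of the flavonoid pathway, went from 66.1 to 529.5 pseudo-counts between ABCG18 (from 1.32 to 13.8) and ABCG19 (from 10.6 to 41.8). On chromosome 2, PKS1 (AT2G02950), a phytochrome signalling protein, went from 70.4 to 1144 and its neighbour MEE12 from 16.8 to 64.0. Some pairs are close copies, such as ST2A and ST2B or GSTU12 and GSTU11. Over the 5 chromosomes the share of higher genes lay between 3.44% and 4.17% and that of lower genes between 2.08% and 2.71%. None of 23 plastid genes (median -0.07) and none of 13 mitochondrial genes (median -0.36) was called. Poly(A) selection takes up organelle transcripts poorly, so their part in these columns is no measure of the amount of these RNAs.

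Whole seedlings had been labelled as the tissue, and 13 markers of root, phloem, xylem, epidermis and guard cells were all present, from CASP1 of the root endodermis (from 3699 to 2852 pseudo-counts) to PDF1 of the epidermis (from 15338 to 19014). None of them was called (median -0.10), and 1 was lower with the columns scaled to the same total. Just inside the 2-fold limit lay OPT3, AT5G45950 (from 153 to 308) and AT3G01660 (from 26.6 to 54.4) on the higher side and PLA2A (from 113 to 55.8), PLP4 and AT3G47680 on the lower side. Just outside lay AT5G42290, AT1G48040 (from 119 to 238) and AT1G75580, and OFP2, AT1G18773 and NUDT8 (from 316 to 158). At the minimum of 10, VIM4 entered with a higher value of 10.0, AT4G22900 with 10.0 and NF-YB5 with 10.0, and bHLH071 and PFA-DSP3 (9.93 each) and RL4 (9.92) stayed out.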

How the data were processed

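Arabidopsis seedlings gave 9 libraries of 3′-end RNA-seq, 3 per group as titled. The authors aligned 50-base reads with Bowtie to TAIR9 transcripts without mismatches and counted unique reads in the last 500 bases of the coding strand. For Bowtie and edgeR, versions were not given in the sources used here. Per the methods, the authors' deposited signal was made with edgeR as pseudo-counts at a common library size, as 1 mean column per group. The unique counting loses reads of near-identical copies.

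No count model or test was run, because 1 value per group leaves no replicates. Differences of log2(value + 1) were computed for genes that reached a value of 10 in D, R1h or both, and a difference of at least 2-fold was called. Approximate reads were the value divided by the mean worth of 1 read, rounded to whole reads, and gave 95% intervals of ratios by the exact (Clopper-Pearson) method, conditional on the summed reads, which cover counting error only. Genes with 1 to 3 reads in a column are given as a plain ratio, and genes at 0 without a fold. The analysis used Python 3.11.15, numpy 2.4.6, pandas 2.3.3, scipy 1.17.1 and matplotlib 3.10.9, and was tested on simulated data.

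The genes compared and the 73 gene lists were chosen with earlier results of these data known, so no list is independent evidence. Lists came from RefSeq product names, from RefSeq symbols and their synonyms, or from loci written out singly. After the values had been seen, 35 entries that RefSeq annotates as other proteins were removed, the locus of SnRK2.2 was corrected and the search words of the bHLH and pentatricopeptide lists were changed. Genes named are the 20 highest and 20 lowest log2 fold changes among genes with a higher value of at least 50, the 10 largest gains and losses in pseudo-counts, per list up to 3 higher and 3 lower members (or the 2 of highest mean where none was called), and up to 3 genes just inside and outside each limit. Other genes named were chosen after their values were seen. Symbols, promoters and gene structures come from RefSeq TAIR10.1, in which 17628 of 17680 loci were found. Coordinates are of that assembly. Alternatives tried were other pseudocounts, other minimum values, 2 scalings of the columns, the counting interval as the limit and a shorter promoter window.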

Additional observations from a re-analysis of the deposited data

How the results depend on the processing

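No paired analysis was possible because each group is given as 1 mean column, and for the same reason no replicate was left out. The number of higher genes lay between 423 and 685 over the alternatives, all within 1.5 times the 626 reported. The number of lower genes, 409, lay between 231 and 484. It was 266 with a value of at least 50 in D or R1h, where fewer genes are compared, and 231 with the entire counting interval required to exceed 2-fold, a stricter limit by construction. With the columns scaled to the same total, 562 genes were higher and 484 lower, and with quantile normalization 608 and 433. With log2(value + 5) the counts were 547 and 316, and without a minimum value 685 and 470. All of the 20 highest and 20 lowest genes kept their call under the 4 settings of pseudocount and scaling. Of 208 named genes past 2-fold, 182 kept the call with a pseudocount of 5, 208 with 0.5, 193 with equal totals and 199 with quantile normalization. No named gene past 2-fold changed sign. List medians that turned negative with equal totals were those of heat shock factors, NF-Y subunits, TCP factors, CLE and RALF peptides, nitrate and peptide transporters, ABC transporters, protein phosphatase 2C and PIF-repressed targets. Genes under about 30 pseudo-counts are limited by counting error, and every result by the lack of values per library.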
